A study of Drosophila melanogaster with 4 samples.

Results

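Scaffold U is the part of the fly genome assembly of FlyBase release 5 that holds sequence not assigned to any chromosome. Its enriched regions for histone H3 dimethylated at lysine 27 (H3K27me2) were all regions whose sequence name was U in the 3 deposited lists. There were 430 such regions among 10114 in replicate 1, 592 among 10115 in replicate 2 and 1223 among 16728 in the list of the whole series. Per the file headers U is 10049037 bp long, which is 5.96% of the sequence named in those headers.

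The chromatin came from head nuclei of adult flies of the wild-type strain Oregon-R, raised in population cages, and the labels name no treatment, transgene or mutation. There were 2 ChIP samples, replicates 1 and 2, precipitated with the H3K27me2 antibody Ab24684, and 2 input samples. The label of each input names the list of the same-numbered ChIP replicate as the one it served. The developmental stage is given as mixed adult, sex and exact age are not stated, and nothing in the labels says that the replicates were separate fly collections, so their spread may be technical. The lists hold positions and scores but no gene names, so the head label could not be checked against marker genes.

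H3K27me2 is placed by Polycomb repressive complex 2, whose catalytic subunit in flies is Enhancer of zeste. The same enzyme adds the further methyl group that gives H3K27me3, the mark of stably silenced developmental genes, while the dimethyl form is spread widely over inactive chromatin. Sequence left unplaced in this assembly comes largely from repeat-rich heterochromatin around the centromeres and on the Y chromosome, which is known for H3K9 methylation and HP1. U joins scaffolds whose place and order are not known, so neighbouring positions on U need not be neighbours in the nucleus, and the lists do not show where the joins lie.

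Each region has a score given by the authors without a stated scale. From its values the score is log2 of a ratio of 2 whole numbers minus 1 constant per list, which held for 100% of the regions in each list. The upper term is taken here for the reads of the ChIP and the lower term for those of the input, a reading that rests on the values alone. Fractions were reduced, so each pair of terms may stand for any whole multiple of itself. Library totals are unknown, and scores were compared within a list only, apart from the correlation between replicates. Because there are 2 replicates, an exact sign-flip test of U against other sequence could not give a two-sided p below 0.5, and no such test is reported. Values are therefore given per replicate. U was set beside the large arms (2L, 2R, 3L, 3R and X together) and beside the pericentric scaffolds (2LHet, 2RHet, 3LHet, 3RHet, XHet and YHet together), which hold the assembled heterochromatin.

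Less of U was listed as enriched than of the pericentric scaffolds or of the large arms. Replicate 1 covered 9.54% of U and replicate 2 covered 13.7%, which gives 11.6% ± 2.91 (mean ± SD, n = 2). The pericentric scaffolds were covered to 23.7% and 31.7%, a mean of 27.7% ± 5.62, and the large arms to 19.1% and 17.4%, a mean of 18.2% ± 1.22 (SD, n = 2 each). The difference between U and the large arms was -9.55 percentage points in replicate 1 and -3.70 in replicate 2. Against the pericentric scaffolds it was -14.2 and -18.0 percentage points. U was thus below both in each replicate, and its distance from the large arms depended strongly on the replicate. Among regions above the median score of their list alone, the difference from the large arms was -0.27 percentage points (mean of the replicates). Cover was taken over the full header length of each sequence. How much of that length reads could be placed on is not known here, and its part in the cover was not tested. In bulk nuclei, a mark carried by fewer cells and a weaker mark in every cell cannot be told apart.

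Single sequences with less cover than U in both replicates were chromosome 4 (3.21% and 4.80%), YHet (2.25% and 7.82%) and Uextra. Uextra is a further scaffold of 29004656 bp named in the headers, on which all 3 lists held 0 regions, and whether it was searched is not given in the sources used here. X lay above U in replicate 1, with 11.7%, and below it in replicate 2, with 6.46%. U held 42.8 and 58.9 regions per Mb in the replicates, against 86.0 and 107 per Mb on the pericentric scaffolds and 74.5 and 71.4 per Mb on the large arms. In the series' list U was covered to 30.6%, the pericentric scaffolds to 53.3% and the large arms to 41.0%, although U held 122 regions per Mb and the large arms 120.

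Regions on U were short and rarely broad. Their median width was 1908 bp in replicate 1 and 1917 bp in replicate 2, against 1964 and 1917 bp on the large arms and 2047 and 2188 bp on the pericentric scaffolds. The shortest regions of U spanned 1301 and 1302 bp, at the lower end of the replicates' lists as a whole, so widths are bounded below. The percentile 90 of width was 3491 and 3838 bp on U, 4860 and 5311 bp on the pericentric scaffolds and 4471 and 4121 bp on the large arms. Regions over 5 kb numbered 13 in replicate 1 and 28 in replicate 2, which is 3.02% and 4.73% of the U regions, against 9.65% and 11.6% on the pericentric scaffolds and 7.58% and 6.12% on the large arms. No region of U exceeded 10 kb in replicate 1 and 2 did in replicate 2. In the series' list 113 regions of U exceeded 5 kb and 23 exceeded 10 kb, the longest at 23574 bp.

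In both replicates the regions were concentrated near the start of the scaffold as assembled. U was divided into 10 equal stretches in the order of its coordinates. The first held 85 regions in replicate 1 and 120 in replicate 2 and was covered to 19.9% and 30.8%, which for replicate 1 is close to the cover of the large arms. The second was covered to 19.6% and 28.2%. Cover was 5.54% and 5.88% in the fifth stretch, 9.61% and 13.3% in the sixth, 10.04% and 11.8% in the seventh, and 3.47% and 4.36% in the tenth. The decline was therefore interrupted at the sixth and seventh stretches in both replicates. Positions 1 to 5024518 held 64.4% of the U regions of replicate 1 and 62.8% of those of replicate 2. In the series' list they held 603 regions (49.3%), against 620 beyond, so region number was not concentrated there. Its cover was 37.1% up to that position and 24.1% beyond it.

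**Figure D1:**
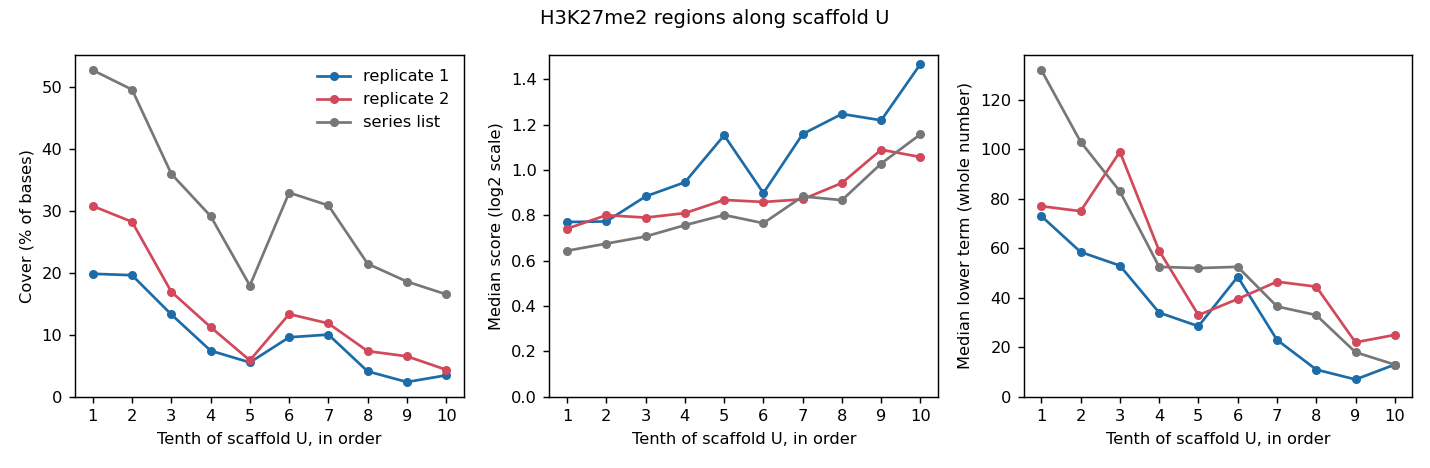
Cover, median score and median lower term (read as input reads) of H3K27me2 regions in 10 equal stretches of scaffold U, in order (points, 1 line per list). Cover fell along the scaffold to 3.47% and 4.36% in the last stretch of replicates 1 and 2, while the median score was highest in the last stretches and the median lower term low.

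The median score was higher in the last stretch than in the first, while cover and the median lower term were lower. The median score was 0.77 and 0.74 (log2 scale) in the first stretch of replicates 1 and 2, against 1.47 and 1.06 in the last. The median lower term was 73 and 77 in the first stretch and 13 and 25 in the last. It did not follow cover at each step: in the third stretch of replicate 2 it was 99, with a cover of 17.0%. Regions with a lower term under 10 made up 12.9% and 4.17% of the regions of the first stretch and 38.1% and 29.2% of those of the last. The series' list gave the same picture, with a median score of 0.64 and a median lower term of 132 in the first stretch and 1.16 and 13 in the last, and with a cover of 52.7% and 16.5%. Its number of regions changed less than its cover, with 136 in the first stretch and 102 in the last. The part of the lower term in the scores and in the cover was not tested.

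Within the scaffold, covered bases were spread unevenly over windows of 100 kb. The fullest 10 of the 100 full windows of 100 kb held 33.5% of the covered bases of U in replicate 1 and 30.9% in replicate 2. The same share of windows held 20.3% and 18.5% on the pericentric scaffolds and 24.4% and 26.4% on the large arms. In the series' list it held 21.5% on U, 15.4% on the pericentric scaffolds and 19.0% on the large arms. This share may also depend on cover, which was lowest on U in each list, and that part was not tested. The median window of U was covered to 6.49% and 10.3%, while the fullest reached 46.2% and 60.1%. Windows without any region numbered 7 in replicate 1 and 5 in replicate 2, and 1 window was empty in both. On the large arms 4.46% and 7.99% of the windows were empty.

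The 5 windows with the highest mean cover lay within the first 2500000 bp. In the window from 1300001 to 1400000 cover was 46.2% for replicate 1 and 60.1% for replicate 2, by 15 and 17 regions. The neighbouring window from 1200001 to 1300000 was covered to 43.2% and 43.4%, by 15 and 10 regions. The others were the windows from 500001 (35.6% and 45.5%), from 300001 (34.6% and 44.8%) and from 2400001 (31.1% and 36.3%). In the series' list these 5 windows were covered to between 62.2% and 77.3%. Replicate 2 had the higher cover in each of the 5, by 0.203 to 13.9 percentage points.

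Cover per window was shared between the replicates in rank as well. Over the 100 windows of U, Pearson's r between replicates was 0.894 and Spearman's rho 0.821, against 0.895 and 0.884 over 90 windows of the pericentric scaffolds and 0.844 and 0.836 over 1189 windows of the large arms. Windows share their libraries and their neighbours, so these are descriptions. Replicate 2 was higher in 81 windows of U and lower in 18. The pericentric scaffolds had the same imbalance, with 80 windows higher and 10 lower, while on the large arms 443 windows were higher and 702 lower.

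**Figure D2:**
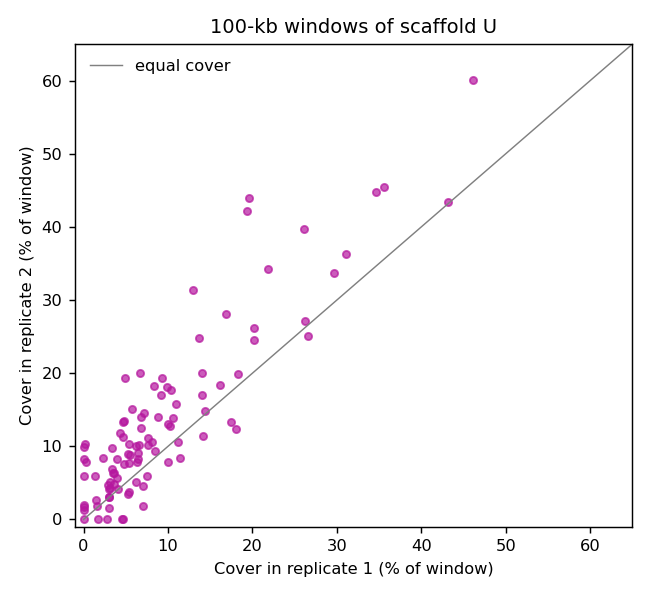
Percent of each full 100-kb window of scaffold U covered by H3K27me2 regions in replicate 1 (horizontal) and replicate 2 (vertical), 1 point per window, with the line of equal cover. In 81 of the 100 windows the point lies above the line, and the fullest window reaches 46.2% in replicate 1 and 60.1% in replicate 2.

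At the scale of single regions U was sparser than both comparison sets. The median gap between neighbouring regions was 8680 bp in replicate 1 and 6520 bp in replicate 2, against 3952 and 3619 bp on the large arms and 3735 and 2431 bp on the pericentric scaffolds. Gaps under 1 kb made up 14.0% and 18.4% of the gaps on U, 22.3% and 30.5% of those on the pericentric scaffolds and 21.9% and 23.0% of those on the large arms. When regions less than 5 kb apart were joined into chains, 42.8% and 38.0% of the U regions stood alone, against 20.9% and 11.2% on the pericentric scaffolds and 22.9% and 21.2% on the large arms. Chains of 5 or more regions held 13.7% and 23.6% of the U regions, against 31.5% and 52.6% on the pericentric scaffolds and 34.2% and 36.1% on the large arms. The largest chain of U in replicate 1 ran from 573832 to 621560 with 13 regions, and in replicate 2 from 361774 to 429893 with 15 regions.

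Gaps over 50 kb on U numbered 49 in replicate 1, 39 in replicate 2 and 5 in the series' list. In the series' list the longest was 124923 bp, from 694595 to 819517. Replicate 1 had no region in it and replicate 2 had 1, covering 0.190% of it. The next were those from 1981844 to 2057107 (75264 bp), from 4510011 to 4570144 (60134 bp), from 2148213 to 2202281 (54069 bp) and from 3786267 to 3837874 (51608 bp), and no region of either replicate touched any of these 4. Since the series' list contained 96.6% of what replicate 1 covered on U and 96.0% of what replicate 2 covered, this absence follows largely from the choice of gaps. Single replicates had longer gaps that the other one filled in part. In replicate 1 the longest was 235796 bp, from 9704661 to 9940456, of which replicate 2 covered 1.63%. In replicate 2 it was 164178 bp, from 3684886 to 3849063, of which replicate 1 covered 2.86%.

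Scores on U were higher than on either set of comparison sequence in the same list, with a long upper tail. Replicate 1 had a median of 0.90 on U and replicate 2 one of 0.82, against 0.78 and 0.74 on the pericentric scaffolds and 0.66 and 0.61 on the large arms. U minus large arms was 0.24 and 0.21 on the log2 scale, a mean of 0.23 ± 0.020 (SD, n = 2), and U minus pericentric scaffolds was 0.12 and 0.084, a mean of 0.10 ± 0.025 (SD, n = 2). Neither difference changed sign between the lists, and the series' list gave 0.33 and 0.14. Only the small scaffolds XHet (0.92 and 0.85, from 17 and 15 regions) and YHet (1.21 and 0.96, from 5 and 15 regions) had a higher median than U in both replicates.

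The distance grew towards the top of the distribution. At the percentile 25 U exceeded the large arms by 0.15 in both replicates, and at the percentile 95 by 1.32 and 0.85. The percentile 95 of U was 2.22 and 1.67, against 1.32 and 1.07 on the pericentric scaffolds and 0.90 and 0.82 on the large arms. The percentile 99 of U was 3.28 and 3.01 and its maximum 3.86 and 3.91, which were also the maxima of the whole lists. Over the whole list 10.0% of the regions of replicate 1 and 10.0% of those of replicate 2 lie, by definition, at or above the percentile 90 of score. On U this held for 230 of 430 regions (53.5%) in replicate 1 and 297 of 592 (50.2%) in replicate 2. On the pericentric scaffolds it held for 29.7% in each replicate, and on the large arms for 6.13% and 4.88%. Among the large arms X stood apart with 20.1% and 30.1%, while the other arms ranged from 0.8% to 5.81%. In the series' list, where the share over all regions is again 10.0%, it held for 776 of 1223 regions of U (63.5%). U thus supplied 22.7% and 29.3% of the top-scoring regions of the replicates, from 4.25% and 5.85% of all their regions.

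**Figure D3:**
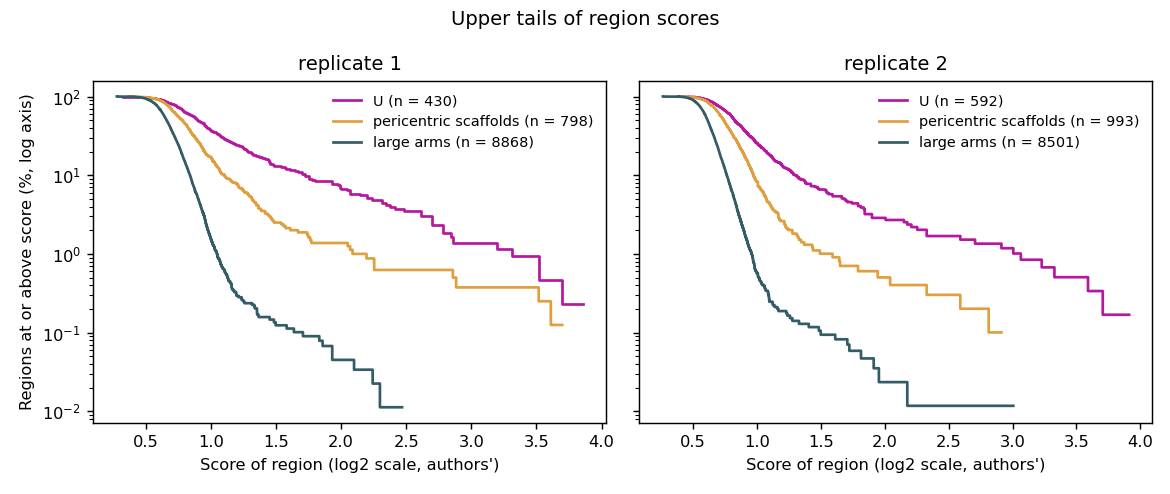
Share of regions at or above each score (percent, log axis) against the score (log2 scale) for scaffold U, the pericentric scaffolds and the large arms, 1 panel per replicate. The curve of U lies above the others over the upper range, with a percentile 95 of 2.22 and 1.67 against 0.90 and 0.82 on the large arms.

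The highest scores rested on small numbers. Scores above 2 were held by 30 regions of U in replicate 1 and 17 in replicate 2, out of 46 and 24 in the whole lists. The median lower term of these U regions was 2 and 1, the median upper term 15 and 13, and the median width 1450 and 1579 bp. A lower term under 10 was found in 29 of the 30 and in 16 of the 17. Of these regions 24 and 14 lay beyond position 5024518. Over all of U the median upper and lower terms were 94.5 and 39 in replicate 1 and 97 and 53 in replicate 2. On the large arms they were 205 and 101 in replicate 1 and 196 and 131 in replicate 2. On the log2 scale, the counting error of a U score had a median of at most 0.28 and 0.25, against 0.18 and 0.16 on the large arms. Only counting error is included, and PCR copies of a molecule would make the true error larger.

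The lower term was also small per length. Its median was 19.1 and 26.7 per kb of region on U, 35.1 and 43.4 per kb on the pericentric scaffolds and 54.3 and 73.8 per kb on the large arms. A lower term under 10 occurred in 21.2% and 13.3% of the U regions, against 9.65% and 5.74% on the pericentric scaffolds and 4.79% and 4.03% on the large arms. A ratio of large numbers can reduce to small terms, so these shares are upper limits. The most frequent score of replicate 1, for example, is a ratio of 2 to 1 and was given to 176 regions of the whole list.

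Scores on U were also above those of the arms within classes of the reduced lower term, which need not match in depth. With a lower term of at least 100, 90 regions of U in replicate 1 had a median of 0.77 and 184 in replicate 2 one of 0.70, against 0.66 and 0.61 on the large arms. With a lower term from 30 to 99 it was 0.83 and 0.85 on U, against 0.66 and 0.62 on the large arms. Under 10 it was 1.67 and 1.27 on U, against 0.61 and 0.59 on the large arms. These 2 large-arm values equal the most frequent scores of the lists, at ratios of 2 to 1 and 3 to 2. Larger numbers can reduce to such ratios, so this class may hold regions of unlike depth. Within U the median thus fell as the lower term rose, while on the large arms it stayed between 0.59 and 0.66. The median also fell on the pericentric scaffolds, with 0.93 and 0.85 under 10 and 0.75 and 0.72 at 100 or more. Against them the regions with the largest terms were close in replicate 2, with 0.70 on U and 0.72 on the scaffolds. The score contains the lower term as its divisor, so the 2 are not independent measures.

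On U the score did not rise with width as it did on the arms. Across regions Spearman's rho between score and width was -0.11 in replicate 1 and -0.14 in replicate 2 on U, where 430 and 592 regions entered. It was 0.54 and 0.47 on the large arms and 0.31 and 0.27 on the pericentric scaffolds. In the series' list rho was -0.41 on U and 0.41 on the large arms. There the pericentric scaffolds showed no rise either, with -0.074. Regions share their libraries and scaffold, so these values are descriptions.

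The regions named for the highest scores had lower terms of at most 3, which choosing by a high ratio favours. The highest score of replicate 1 was 3.86, at U:6444579-6446252, with terms of 19 to 1 and a counting error of at most 1.48 on the log2 scale. The next 4 of replicate 1 scored 3.70 to 3.31. The highest of replicate 2 was 3.91, at U:9500142-9501744, with terms of 15 to 1 and a counting error of at most 1.49. The next 4 of replicate 2 scored 3.71 to 3.23. None of these 10 regions overlapped a region of the other replicate, and 9 of them lay beyond position 5024518. In the series' list the 10 highest scores ran from 3.14 to 3.46, over regions of 1001 to 2420 bp with lower terms of 1 or 2, and all 10 lay beyond that position. Of these 10, replicate 1 touched none and replicate 2 touched 2. Position 9011214 to 9013633, the highest of the series' list with 25 to 2, was covered to 65.2% in replicate 2 and to 0% in replicate 1. The last 5 named are tied with 2 others at a ratio of 10 to 1, and were taken in order of position.

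The longest regions differed from these in terms and recurrence, which follows in part from choosing by width. The 10 longest of the series' list on U spanned 12531 to 23574 bp, all before position 5024518, with scores between 0.57 and 0.90 and lower terms between 508 and 2541. Both replicates had regions in all 10, and the mean cover ran from 51.2% to 81.7%. Long regions recurred in the whole lists too: 95.3% (replicate 1) and 97.9% (replicate 2) of those over 5 kb overlapped the other replicate. The longest, U:302466-326039, scored 0.90 and was covered to 55.2% by 5 regions of replicate 1 and to 69.0% by 2 regions of replicate 2. The fourth, U:1963699-1981843, scored 0.75 and was covered to 85.1% and 78.3%, a mean of 81.7% ± 4.83 (SD, n = 2). It ends where the second longest gap of U begins. The region U:1317809-1336139 scored 0.68 and was covered to 70.2% and 91.4%. Their counting errors were at most 0.036 to 0.079 on the log2 scale, against 1.06 to 1.51 for the 10 highest scores.

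The overlap of the replicates on U was unequal in the 2 directions. The Jaccard index, which divides the sequence covered by both replicates by the sequence covered by at least 1 of them, was 0.300 on U, 0.450 on the pericentric scaffolds and 0.340 on the large arms. The index also depends on cover, which was lowest on U in both replicates, so it does not by itself rank these sequences by agreement. On U 538226 bp were covered in both, or 56.2% of what replicate 1 covered there and 39.2% of what replicate 2 covered. On the pericentric scaffolds these shares were 72.4% and 54.3%, unequal in the same direction, and on the large arms 48.5% and 53.3%. The same shared length is divided by each replicate's cover, so the 2 shares differ as the covers do. An overlap of at least 1 bp with the other replicate was found for 62.7% of all regions of replicate 1 and 63.5% of all regions of replicate 2. On U it was found for 277 of 430 regions of replicate 1 (64.4%) and 279 of 592 of replicate 2 (47.1%). The share of replicate 1 was near that of its whole list, and that of replicate 2, the list with more regions on U, was below it. On the pericentric scaffolds the shares were 84.7% and 67.3%. The mean of both directions on U was 55.8%, and 33.3% when the overlap had to reach 50% of each region.

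Regions of U that recurred scored lower and were wider than those that did not. Regions with a partner had median scores of 0.82 (replicate 1) and 0.79 (replicate 2), against 1.20 and 0.89 for regions without one. Their median width was 2051 and 2320 bp, against 1647 and 1720 bp. On the pericentric scaffolds the order of scores was the same as on U, with 0.76 and 0.74 for regions with a partner and 0.89 and 0.74 for those without, although the last difference was small. On the large arms the order was the other way round, with 0.67 and 0.62 for regions with a partner and 0.65 and 0.59 for those without. Of the U regions over 5 kb, 13 of 13 in replicate 1 and 27 of 28 in replicate 2 (96.4%) had a partner, near the 95.3% and 97.9% of all regions over 5 kb in the whole lists.

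Recurrence was lowest among the highest scores of U. Split into 5 equal groups by score, the lowest group of U had a partner for 86.0% of its regions in replicate 1 and 61.0% in replicate 2. The highest group had one for 17 of 86 (19.8%) and 22 of 119 (18.5%). Large-arm regions within the same 2 score ranges had a partner for 58.8% and 61.3% in the lowest range, and in the highest for 6 of 21 (28.6%) and 13 of 29 (44.8%). On the pericentric scaffolds it was 88.7% and 62.3% in the lowest range, and 17 of 46 (37.0%) and 25 of 49 (51.0%) in the highest. The highest range thus had the smallest share on all 3 kinds of sequence. The median lower term of the U regions was 79 and 124.5 in the lowest group and 5 and 13 in the highest.

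**Figure D4:**
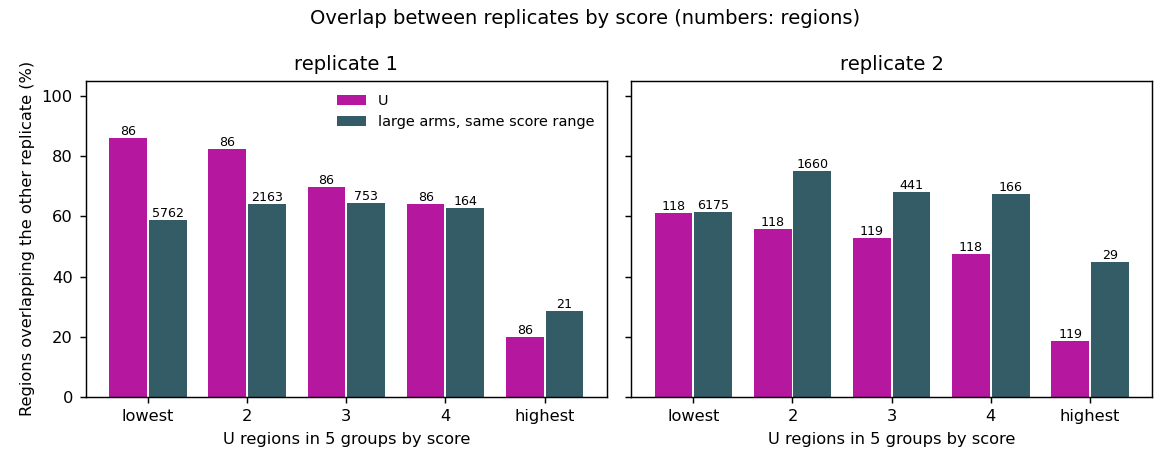
Percent of regions overlapping the other replicate, for scaffold U split into 5 equal groups by score (left bars) and for large-arm regions within the same score range (right bars), 1 panel per replicate. Numbers above the bars are regions, and the highest group of U reaches 19.8% in replicate 1 and 18.5% in replicate 2.

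Among regions at or above the percentile 90 of score, 61.0% of the whole list of replicate 1 and 56.2% of that of replicate 2 had a partner. On U this held for 111 of 230 regions (48.3%) and 103 of 297 (34.7%), against 73.4% and 66.1% on the pericentric scaffolds. Above a score of 2 it held for 3 of 30 (10.0%) and 2 of 17 (11.8%) regions of U, near the 6 of 46 (13.0%) and 2 of 24 (8.33%) of the whole lists, most of whose regions above that score are on U. By lower term, 28 of 91 U regions (30.8%) of replicate 1 and 23 of 79 (29.1%) of replicate 2 with a lower term under 10 had a partner. Over the whole lists this share was 47.7% and 53.4%, on the pericentric scaffolds 54.5% and 54.4%, and on the large arms 50.4% and 58.9%. With a lower term of at least 100 it was 83 of 90 (92.2%) and 129 of 184 (70.1%), against 94.5% and 77.7% on the pericentric scaffolds and 71.1% and 68.8% on the large arms. The lower term thus differed together with recurrence, and its part was not tested.

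Regions of U without a partner often lay some way from the other replicate. The nearest region of the other replicate was a median of 4712 bp away for 153 regions of replicate 1 and 7145 bp for 313 of replicate 2, against 2167 and 2630 bp on the pericentric scaffolds and 3268 and 2441 bp on the large arms. Within 1 kb lay 18.3% and 14.1% of them, against 32.0% and 23.7% on the pericentric scaffolds and 22.9% and 26.3% on the large arms. Regions were also sparser on U within each replicate, and the part of this in the distances was not tested.

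Where regions did overlap, their scores ranked alike to a moderate degree. Each region of replicate 1 was paired with the region of replicate 2 of largest overlap, which gave 277 pairs on U with 253 different regions of replicate 2. Spearman's rho was 0.565 and Pearson's r 0.660 on U, against 0.449 and 0.425 over 676 pairs on the pericentric scaffolds and 0.365 and 0.421 over 5374 pairs on the large arms. Without the 43 pairs in which either lower term was under 10, the values on U were 0.516 and 0.490 over 234 pairs. The edges of paired regions on U differed by a median of 593 bp, against 824 bp on the pericentric scaffolds and 795 bp on the large arms. Of the 277 pairs, 111 were at or above the percentile 90 of score in replicate 1, 110 in replicate 2 and 74 in both. With so many in each list, part of these 74 would coincide without any agreement of scores.

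The 5 pairs on U with the highest mean percentile of score are high in both replicates by choice. The first, at 9169937 to 9171263 in replicate 1 and 9169396 to 9171272 in replicate 2, scored 2.24 (68 to 11) and 2.59 (6 to 1). The series' list held a single region there, 9169131 to 9172028, with a score of 2.31. A second pair from the same stretch, at 9172856 to 9174457 and 9172881 to 9174431, scored 1.67 and 1.33. The others lay at 6102863 to 6104200 (2.35 in replicate 1 and 1.79 in replicate 2, with 208 bp of overlap), at 1219435 to 1220763 (1.99 and 2.18) and at 3506561 to 3508051 (1.65 and 1.27). The lower terms of all 5 pairs were at most 11 in each replicate.

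**Figure D5:**
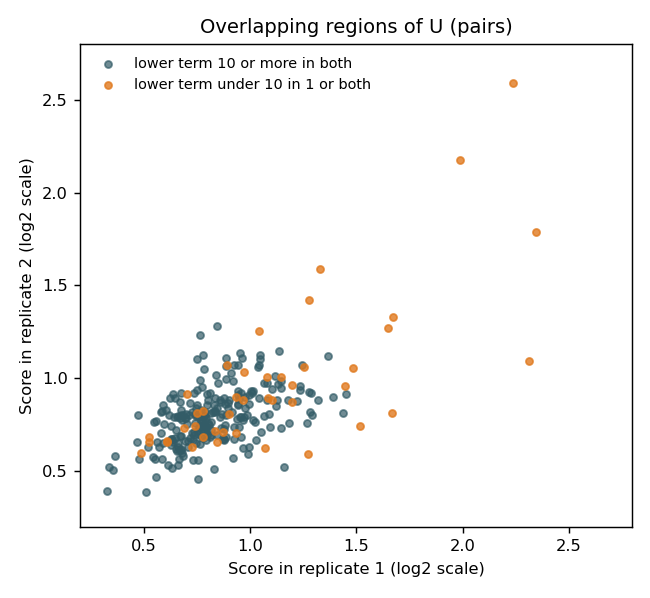
Score in replicate 2 against score in replicate 1 (log2 scale) for the 277 pairs of overlapping regions on scaffold U, coloured by whether either lower term was under 10 (43 pairs). Most pairs lie below 1.5 in both replicates, and the few higher ones belong to the pairs with a small lower term.

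The series' list added many regions on U that neither replicate held. Over that whole list 27.7% of the regions touched both replicates. On U 233 of 1223 did (19.1%), 376 touched 1 replicate (30.7%) and 614 touched neither (50.2%), against 37.7%, 26.5% and 35.8% on the pericentric scaffolds and 27.7%, 33.7% and 38.7% on the large arms. With cover of at least 50% of the region required from both, the share was 10.5%. Regions of U in both replicates had a median width of 4483 bp, a median score of 0.70 and a median lower term of 279. Those in neither had 1324 bp, 0.92 and 20. The pericentric scaffolds had the same order of scores, with 0.71 in neither and 0.65 in both, while on the large arms the regions in neither had 0.42 and those in both 0.52. Of the 614 in neither, 291 were shorter than 1301 bp, the shortest region of the replicates' lists. Over the whole series' list this held for 2887 of 6578, and on the large arms for 2384 of 5520. Whether the replicates' lists excluded shorter regions is not known, since the threshold of the caller is not given. Regions of U in replicate 2 alone numbered 256 (20.9%) and those in replicate 1 alone 120 (9.81%). Over the whole series' list these shares were 15.9% and 17.0%. The pericentric scaffolds had the same imbalance as U, with 19.7% and 6.86%. By bases, both replicates covered 17.5% of the series' regions on U, a single replicate 38.0% and neither 44.5%, against 32.2%, 38.3% and 29.5% on the pericentric scaffolds and 22.6%, 41.5% and 35.9% on the large arms.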

How the data were processed

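ChIP-seq of H3K27me2 in fly head nuclei was analysed from 3 deposited lists of enriched regions: those of the 2 ChIP replicates and that of the whole series. No list of an input was used. Per the submitters' processing notes Bowtie 0.12.7 was used. Which program called the regions, at what threshold, and how the series' list was built is not given in the sources used here. Positions are on FlyBase release 5, per the file headers, and are printed as deposited. The score deposited by the authors per region has no stated scale. A constant per list was chosen so that 2 to the power of score plus constant was a ratio of whole numbers with the smallest terms (relative tolerance 1e-12, denominators up to 20000). The constants were 0.39, -0.0058 and 0.18 on the log2 scale for replicate 1, replicate 2 and the series' list. On simulated lists 100% of the terms were recovered. Regions were trimmed at the scaffold ends, and cover, overlap (at least 1 bp) and windows of 100 kb were computed with Python 3.11.15, NumPy 2.4.6 and SciPy 1.17.1. Named regions followed a rule: the 10 highest-scoring and 10 longest regions of the series' list on U, the 5 highest-scoring of each replicate, its 5 longest gaps, the 5 fullest windows and the 5 pairs of highest mean percentile. Members, rules and lists were chosen with earlier results of these data known. No genome or annotation of release 5 was used, so no sequence or gene is given. The design, a single ChIP group with 2 replicates, allowed no group test.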

Additional observations from a re-analysis of the deposited data

How the results depend on the processing

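No paired analysis was possible because only ChIP samples have lists, and the inputs that carry their replicate numbers have none here. Of 65 alternative values of 14 results, 36 stayed within the spread between replicates, or the interval or range that replaced it, and 29 moved beyond it. Of the 36, 20 leave out 1 replicate and lie within that spread by construction. None changed sign. The minimum lower term of 10 was added after seeing the data. Where a cause is not named, it was not tested.

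With the series' list in place of the replicates, cover of U was 30.6%, its regions 1223, its median width 1860 bp, its median score 0.78, the share at or above the percentile 90 of score 63.5%, the difference in median score 0.33 from the large arms and 0.14 from the pericentric scaffolds, the share of covered bases in the fullest windows 21.5% and the median gap 2916 bp. With scores above the median of each list alone, the median width was 1945 bp, the difference in cover from the large arms -0.27 percentage points, against -6.62 with all regions, the difference in median score 0.18, the median gap 10564 bp, the Jaccard index 0.256, the share of regions with a partner 48.1%, the rank correlation of scores 0.463 and the share of series' regions in both replicates 16.3%. Merging of regions less than 1 kb apart gave a median width of 1960 bp and a median gap of 10930 bp. Against the pericentric scaffolds the difference in cover was -16.1 percentage points. Windows of 50 and 200 kb gave 34.6% and 30.3% of the covered bases in the fullest windows. A reciprocal overlap of 50% gave 33.3% of regions with a partner, a rank correlation of 0.661 and 10.5% of series' regions in both replicates, and leaving out series' regions shorter than the shortest replicate region gave 25.8%. With a lower term of at least 10, the share at or above the percentile 90 was 45.1%, and the differences in median score 0.19 and 0.075.

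Leaving out 1 replicate gave a cover of 9.54% to 13.7%, 430 to 592 regions, median widths of 1908 to 1917 bp, median scores of 0.82 to 0.90, 50.2% to 53.5% at or above the percentile 90, differences in cover of -9.55 to -3.70 points and in median score of 0.21 to 0.24 and 0.084 to 0.12, 30.9% to 33.5% in the fullest windows and median gaps of 6520 to 8680 bp. How far depth limits the upper tail of scores is known only as a bound: the counting errors of the 10 highest of the series' list were at most 1.06 to 1.51 on the log2 scale, since the terms are reduced.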
